A study of Mus musculus with 32 samples.

Results

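A set of 9 genes of Notch signalling and of the proneural cascade was followed through the developing mouse brain, with and without the cholesterol synthesis gene Dhcr7. They are Dll1, Dll3, Hes1, Hes5, Neurog1, Neurog2, Eomes, Neurod1 and Neurod4. They were chosen by symbol, for their place in the pathway and with earlier results of these data known, and make up 9 of the 55291 gene symbols counted at every stage. Messenger RNA had been sequenced from whole brains of C57BL/6J mice, either wild type (WT, Dhcr7+/+) or knockout (KO, Dhcr7-/-). Brains came from embryos at E12.5, E14.5 and E16.5, stages named by embryonic day, and from newborns, PND0. Each genotype and stage had 4 libraries, 32 in all. Dhcr7 encodes the last enzyme of cholesterol synthesis and is the gene mutated in Smith-Lemli-Opitz syndrome. The labels describe no allele, agent or transgene beyond this deletion. The labels do not give litter or sex, so a p-value measures the spread between these libraries only.

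In the neural tube, dividing progenitors that start to become neurons switch on proneural transcription factors of the bHLH family, among them the neurogenins Neurog1 and Neurog2. These factors switch on Delta ligands, Dll1 above all, on the cell surface, and the ligands activate Notch receptors on neighbouring cells. The activated receptor, bound to the DNA-binding protein RBPJ, switches on Hes1 and Hes5, repressors that hold the neighbour as a progenitor and keep its proneural genes low. In the cortex, Neurog2 is followed by Eomes (also called Tbr2) in intermediate progenitors and then by Neurod1 in cells about to become neurons. Neurod4 is a related bHLH factor that acts at a similar step.

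The 32 libraries held between 13.87 and 28.32 M counts. Levels are given as CPM, a gene's counts per 1 M library counts after TMM scaling over all 32 libraries. At E12.5 the level of Dhcr7 itself was 67.3 ± 3.91 CPM in WT against 21.9 ± 4.63 CPM in KO (SD, n = 4 each). It was also lower in KO at E14.5 (70.0 ± 0.799 against 13.2 ± 1.09 CPM), then at E16.5 (62.5 ± 3.11 against 17.1 ± 0.902 CPM) and at PND0 (89.2 ± 19.6 against 14.4 ± 2.01 CPM). No KO library overlapped a WT library of its stage in Dhcr7. The spread between libraries was uneven, with a biological coefficient of variation of 19.9% for the E12.5 libraries and 6.25%, 9.99% and 16.6% for the later stages in order. The E12.5 libraries also differed in what tissue they held. The summed level of 5 muscle markers was 172 CPM in E12.5 WT replicate 1 against 4.17 to 45.3 CPM in the other 7 libraries of that stage, and at most 3.34 CPM in any library of a later stage. E12.5 KO replicate 1 had 5.64% of its counts in the ribosomal RNA gene CT010467.1, against at most 0.376% in the other E12.5 libraries. E16.5 WT replicate 1 had 3.75% in that gene, against 0.356% to 0.626% in the other E16.5 libraries. Brain regions were uneven at later stages: the midbrain and cerebellum markers En1, En2, Pax2 and Pax5 summed to between 1.68 and 81.9 CPM in the WT libraries at E16.5, and to 1.37 CPM in PND0 KO replicate 4 against 35.4 to 47.1 CPM in the other 3 KO libraries.

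The 9 genes lie on 9 chromosomes of build GRCm38, all protein coding in GENCODE M21. The ligand genes are Dll1 (ENSMUSG00000014773.13, chr17:15367354-15376872, minus strand) and Dll3 (ENSMUSG00000003436.11, chr7:28293553-28302238, minus strand). The effectors are Hes1 (ENSMUSG00000022528.8, chr16:30064384-30067796, plus strand) and Hes5 (ENSMUSG00000048001.7, chr4:154960923-154962371, plus strand). The neurogenins are Neurog1 (ENSMUSG00000048904.5, chr13:56250478-56252163, minus strand) and Neurog2 (ENSMUSG00000027967.8, chr3:127633135-127635631, plus strand). Downstream of them are Eomes (ENSMUSG00000032446.14, chr9:118478212-118486132, plus strand), Neurod1 (ENSMUSG00000034701.9, chr2:79452521-79456751, minus strand) and Neurod4 (ENSMUSG00000048015.4, chr10:130268152-130280240, minus strand). Exons of Hes5 and Eomes overlap an exon of Gm20421 and Gm33460 on the opposite strand, and exons of Neurod1 overlap Cerkl on its own strand. Whether the counting used strand is not given in the sources used here, and these 3 neighbours had 107, 334 and 209 counts over all 32 libraries. Exons of Dll1 and Neurod1 also overlap A930024N18Rik (445 nt) and Gm26755 (154 nt) on the opposite strand, whose reads are not analysed here.

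The promoters of Dll1 and Hes5 are shown because these genes stand on the 2 sides of the signal, the ligand under proneural factors and the effector under Notch. The 250 bases before the start site were read from RefSeq's promoter table for GRCm38.p6, which had entries for 8 of the 9 genes, Hes1 being the exception. Both strands were searched for the E-box CANNTG, the core of sites bound by proneural bHLH factors, and for TGGGAA, the core of sites bound by RBPJ. Capitals mark the E-box in the Dll1 promoter, which reads CANNTG on both strands, and TGGGAA or its reverse complement TTCCCA in the Hes5 promoter.
Dll1 (chr17:15376933-15377182, minus strand): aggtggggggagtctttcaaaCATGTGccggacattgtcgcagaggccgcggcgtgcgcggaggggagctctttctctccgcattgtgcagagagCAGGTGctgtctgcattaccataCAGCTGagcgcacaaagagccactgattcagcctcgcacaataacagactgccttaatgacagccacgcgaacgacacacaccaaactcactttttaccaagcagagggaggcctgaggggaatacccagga
Hes5 (chr4:154960673-154960922, plus strand): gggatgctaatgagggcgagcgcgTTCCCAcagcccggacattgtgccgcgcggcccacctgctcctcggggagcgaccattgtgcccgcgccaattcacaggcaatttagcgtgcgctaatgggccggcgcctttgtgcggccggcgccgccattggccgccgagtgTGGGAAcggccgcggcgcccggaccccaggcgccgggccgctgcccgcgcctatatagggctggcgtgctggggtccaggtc

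The Dll1 promoter shown, the table's second entry for the gene, held 3 E-boxes, 229, 155 and 132 bases before the start. The Dll3 window (chr7:28301786-28302035, minus strand) held 2, at 228 and 7 bases, and is not printed because it lies in an annotated UTR of a longer Dll3 transcript. Of the 32851 promoters of the same length in the table, 66.2% held at least 1 E-box, 31.8% at least 2 and 12.2% at least 3. The Hes5 promoter held TGGGAA at 226 bases on the minus strand and at 82 bases on the plus strand, and 2.77% of all promoters held at least 2 copies. It also held 1 E-box, 194 bases before the start, left in lower case. Among the 10 promoter entries of the 8 genes, TGGGAA was found in that of Hes5 and in no other. The windows also touch exons of noncoding transcripts in GENCODE M21, A930024N18Rik at Dll1 and Gm20421 at Hes5. These matches are descriptions of the sequence, not sites shown to be bound.

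In WT brain the 9 genes followed different courses up to E14.5 and then all fell. The question of each step was which of them changed between neighbouring stages, tested with edgeR's quasi-likelihood test and a Benjamini-Hochberg adjusted p under 0.05 over all genes of the step. From E12.5 to E14.5, 5 of the 9 passed, against 57.8% of all tested genes: Eomes and Neurod1 rose (27.3% of all genes did) and Hes1, Hes5 and Neurog1 fell (30.5%). From E14.5 to E16.5, all 9 fell, where 57.5% of all genes changed and 28.2% fell. From E16.5 to PND0, where 53.2% changed, Dll1, Dll3, Neurog1, Neurog2, Eomes and Neurod4 fell, 6 of 9 against 27.2% of all genes, and none rose. The 5 genes of the first step also had no overlap between the stages, as 27.2% of all genes did upwards and 26.4% downwards. All 9 of the second step (28.2% of all genes downwards) and the last 4 named of the third (23.6%) had none either. The median log2 fold change of the 9 genes was -0.09, -1.16 and -0.51 over the 3 steps, beside -0.03, 0.01 and -0.01 over all tested genes. In whole-brain RNA, fewer cells of a type and less RNA per cell cannot be told apart.

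**Figure D1:**
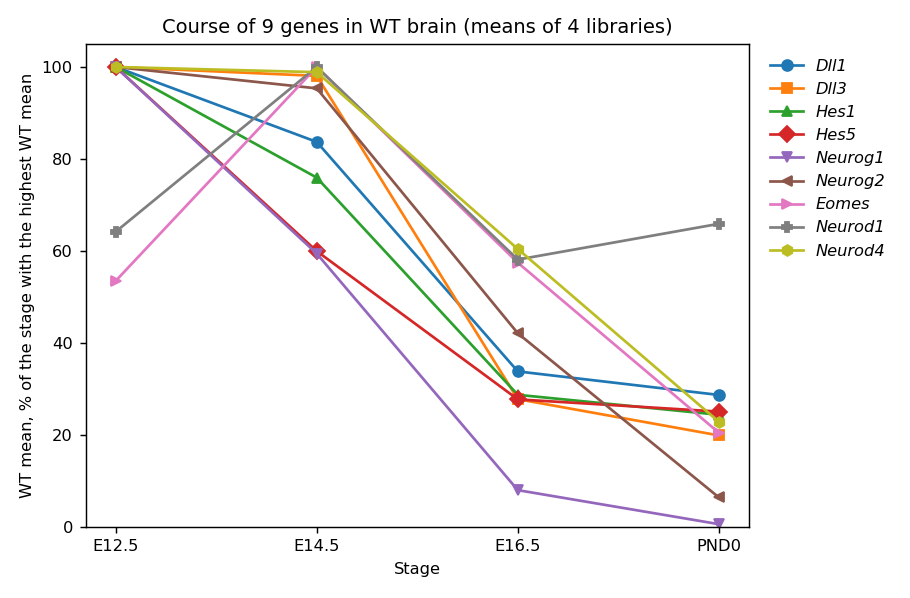
WT mean of each gene at the 4 stages (horizontal axis), as a percentage of its own highest stage mean (vertical axis), 4 libraries a mean and no error bars. Eomes and Neurod1 peak at E14.5 and the other 7 genes at E12.5, and Neurog1 ends at 0.5695% of its peak while Neurod1 ends at 65.9%.

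Dll1, the main activating Delta ligand of the embryonic brain, measured 82.0, 123, 112 and 147 CPM in the 4 WT libraries at E12.5 and 100.4, 92.0, 99.4 and 96.4 CPM at E14.5. It then lay at 38.4, 38.9, 43.8 and 35.7 CPM at E16.5 and at 29.5, 33.2, 33.1 and 37.2 CPM at PND0. The drop between E14.5 and E16.5 left no overlap between the stages, while the other neighbouring stages overlapped. By edgeR the log2 fold change was -0.28 (SE 0.146, adjusted p = 0.127) to E14.5, -1.29 (SE 0.0644, adjusted p = 7.71e-10) to E16.5 and -0.26 (SE 0.0965, adjusted p = 0.0318) to PND0. The call of the last step was narrow: the adjusted p was between 0.054 and 0.108 when E16.5 WT replicate 1 or 3, or PND0 WT replicate 1, 2 or 3, was left out. Without E12.5 WT replicate 1, the library rich in muscle markers, Dll1 also passed from E12.5 to E14.5 (log2 fold change -0.41, adjusted p = 0.000508).

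Dll3, a divergent Delta protein that does not activate Notch in neighbouring cells and can dampen it within a cell, did not pass the test from E12.5 to E14.5 and fell at both later steps. It measured 38.9, 46.2, 42.9 and 61.4 CPM at E12.5 and 44.7, 40.3, 53.6 and 47.1 CPM at E14.5, which overlap. It then measured 10.1, 13.9, 13.9 and 14.8 CPM at E16.5 and 9.62, 9.51, 7.77 and 10.8 CPM at PND0. By edgeR the changes were -0.06 on the log2 scale (adjusted p = 0.742) in the first step, -1.80 (SE 0.115, adjusted p = 1.55e-08) in the second and -0.51 (SE 0.152, adjusted p = 0.0112) in the last. Per length, the ratio of Dll3 to Dll1 was 0.565 ± 0.0614, 0.654 ± 0.0641, 0.462 ± 0.0882 and 0.389 ± 0.0517 at the 4 stages in order (SD, n = 4 WT libraries each).

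The Notch effectors fell from the start. Hes1 measured 35.3, 39.4, 31.2 and 36.6 CPM in WT at E12.5, 26.3, 25.4, 29.9 and 26.7 CPM at E14.5, 8.06, 10.5, 10.6 and 11.8 CPM at E16.5 and 8.65, 8.43, 9.33 and 8.31 CPM at PND0. Neither the E12.5 and E14.5 libraries nor the E14.5 and E16.5 libraries overlapped, and the last pair of stages did. Its log2 fold changes were -0.43 (adjusted p = 0.00201), -1.38 (adjusted p = 2.71e-08) and -0.26 (adjusted p = 0.133) by edgeR.

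Hes5, whose expression in neural progenitors depends on Notch activity, measured 34.4, 45.4, 40.4 and 58.0 CPM at E12.5 and 26.3, 23.2, 29.7 and 27.6 CPM at E14.5. It lay at 12.7, 12.3, 10.4 and 13.97 CPM at E16.5 and spread from 6.65 to 18.8 CPM at PND0. The log2 fold changes were -0.77 (adjusted p = 0.0017), -1.09 (adjusted p = 2.49e-07) and -0.18 (adjusted p = 0.642) by edgeR. At PND0, WT replicates 1 and 3 had 7.01 and 6.65 CPM of Hes5 while replicates 2 and 4 had 18.8 and 12.1 CPM, so the last step had a wide 95% interval of -0.84 to 0.49.

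As a share of their own highest WT stage, the neurogenins ended lowest of the 9, at 0.5695% for Neurog1 and 6.38% for Neurog2. Neurog1, which acts in cranial sensory ganglia, midbrain and other parts of the brain, measured 13.9, 20.05, 14.04 and 26.7 CPM at E12.5, 11.9, 10.2, 11.2 and 11.1 CPM at E14.5 and 1.29, 1.87, 1.196 and 1.59 CPM at E16.5. No neighbouring stages overlapped. The log2 fold change was -0.78 (adjusted p = 0.00721) and then -2.87 (SE 0.157, adjusted p = 1.34e-09) by edgeR, the largest estimated fall of the 9 genes between E14.5 and E16.5. At PND0, WT libraries held 8 Neurog1 counts in all, with 2 of the 4 libraries at 0, and the fitted change of -3.69 rests on those few counts.

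Neurog2, the leading neurogenin of the cortex, stood at 95.2, 183, 181 and 211 CPM at E12.5 and at 167, 151, 173 and 148 CPM at E14.5. The low value was E12.5 WT replicate 1. It fell to 59.6, 48.0, 84.8 and 89.6 CPM at E16.5 and to 7.58, 16.2, 7.43 and 11.5 CPM at PND0, with no overlap at either step. The log2 fold changes were -0.09 (adjusted p = 0.719), -1.16 (SE 0.211, adjusted p = 0.00322) and -2.75 (SE 0.317, adjusted p = 0.000181) by edgeR. Without E12.5 WT replicate 1, Neurog2 also fell from E12.5 to E14.5 (log2 fold change -0.28, adjusted p = 0.0025).

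Eomes, the marker of intermediate progenitors, peaked later. It measured 35.3, 82.7, 90.4 and 75.1 CPM in WT at E12.5 and rose to 134, 135, 134 and 128 CPM at E14.5, where the 4 libraries were close together and above all 4 of E12.5. It measured 76.5, 50.5, 97.6 and 79.9 CPM at E16.5 and 29.9, 30.2, 14.1 and 34.2 CPM at PND0, and each stage lay below the one before without overlap. The log2 fold changes were 0.88 (SE 0.243, adjusted p = 0.0139), -0.78 (SE 0.187, adjusted p = 0.0104) and -1.52 (SE 0.309, adjusted p = 0.00459) by edgeR. Without a filter on low counts the adjusted p of the rise was 0.0588. The lowest E16.5 library, WT replicate 2, had the highest sum of midbrain and cerebellum markers of that group, 81.9 CPM. The part of dissection in these levels was not tested.

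Neurod1, a differentiation factor of newborn neurons, had the only positive estimate among the 9 at the step to PND0, where it did not pass the test, as Hes1 and Hes5 did not. It measured 29.5, 45.0, 37.2 and 43.2 CPM at E12.5, 60.7, 66.5, 55.1 and 59.2 CPM at E14.5, 40.7, 32.3, 37.2 and 30.1 CPM at E16.5 and 34.7, 40.3, 33.9 and 50.2 CPM at PND0. The E14.5 libraries lay above those of both neighbouring stages, and the last pair of stages overlapped. It rose by 0.61 (SE 0.121, adjusted p = 0.00192) and fell by 0.76 (SE 0.0907, adjusted p = 4.31e-06) on the log2 scale, and the last log2 fold change was 0.15 (95% interval -0.13 to 0.44, adjusted p = 0.351) by edgeR.

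Neurod4 changed late. Its WT mean was 6.33 ± 0.675 CPM at E12.5, 6.26 ± 0.813 CPM at E14.5, 3.83 ± 0.725 CPM at E16.5 and 1.45 ± 0.553 CPM at PND0 (SD, n = 4). The log2 fold changes were -0.05 (adjusted p = 0.784), -0.68 (adjusted p = 0.00205) and -1.44 (adjusted p = 0.000705) by edgeR. A fit of all 32 libraries left the fall to E16.5 just short of the threshold (adjusted p = 0.05004).

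Divided by the length of the longest annotated transcript, Neurog2 stood highest in WT at E12.5, E14.5 and E16.5, with means of 75.2, 71.7 and 31.7 CPM per kb. At E12.5 its libraries, at 42.8 to 94.6 CPM per kb, overlapped those of Hes5 (27.0 to 45.5), the next in order. Dll1, Hes1, Eomes, Dll3, Neurod1 and Neurog1 followed with each neighbour overlapping the next, and Neurod4 stood apart at 1.89 CPM per kb. At E14.5 the order opened with Neurog2, Eomes (37.2) and Dll1 (27.1), whose ranges did not overlap. Neurod1, Hes5, Hes1 and Dll3 then lay between 22.1 and 17.7 CPM per kb with neighbours overlapping. At PND0 Neurod1 was highest at 14.6 CPM per kb, above the range of Dll1 (8.23 to 10.4), and Neurog2 was 6th of the 9 at 4.80 CPM per kb.

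The balance between Neurog2 and its downstream genes moved over time. Per length, the ratio of Eomes to Neurog2 in WT was 0.262 ± 0.0425, 0.521 ± 0.0345, 0.685 ± 0.1035 and 1.67 ± 0.622 at the 4 stages in order (SD, n = 4). At E12.5 it ran from 0.223 to 0.312 over the 4 libraries and at E14.5 from 0.484 to 0.560, without overlap. The ratio of Neurod1 to Neurog2 was 0.197 ± 0.0405, 0.311 ± 0.0425, 0.435 ± 0.141 and 3.26 ± 0.825 at the same stages. In KO the ratio of Eomes to Neurog2 was 0.241 ± 0.0387, 0.551 ± 0.0358, 0.738 ± 0.0576 and 1.03 ± 0.354, and the ranges of the genotypes overlapped at every stage. The ratios were not tested.

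Genes with the most similar course were sought over the 16 WT libraries, by Pearson's r of log2 CPM. The closest to Dll1 were Ube2q1 (r = 0.987) and Igdcc3 (0.981), to Dll3 Crb2 (0.986) and Hnrnpk (0.985), to Hes1 Rfwd3 (0.993) and Epb41 (0.991), and to Hes5 Dusp10 (0.972). Neurog1 was closest to Nhlh1 (0.989), a bHLH gene of newly formed neurons, and to Srsf6 (0.987), and Neurog2 to Rcor2 (0.989) and Ezh2 (0.984). Eomes was closest to Shkbp1 (0.953) and Lmbr1l (0.947), Neurod1 to Phc1 (0.950) and Auts2 (0.925), and Neurod4 to Itgb3bp (0.978) and Zfp105 (0.963). The libraries share stages, so these values describe the course over the 4 stages and carry no p.

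The wider pathway, 63 other genes of Notch signalling and of the proneural cascade, moved less uniformly. From E12.5 to E14.5, 24 of 61 tested rose and 18 fell, where 27.3% of all genes rose and 30.5% fell. From E14.5 to E16.5, 10 of 60 rose and 35 fell, where 29.3% of all genes rose and 28.2% fell. From E16.5 to PND0, 17 of 59 rose and 18 fell, against 26.0% and 27.2% of all genes.

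All 4 Notch receptors fell between E14.5 and E16.5. Notch1 went from 266 ± 5.73 to 82.0 ± 17.6 CPM (log2 fold change -1.67, adjusted p = 2.14e-05 by edgeR), Notch2 from 129.5 ± 6.19 to 67.7 ± 12.8 CPM and Notch3 from 139.7 ± 6.55 to 54.4 ± 8.80 CPM, while Notch4, an endothelial receptor, changed by -0.54. All 4 tested genes of the nuclear complex, Rbpj and the coactivators Maml1, Maml2 and Maml3, also fell. The ligands divided: Jag1 fell by 0.99 on the log2 scale, while Jag2 rose from 53.5 ± 2.85 CPM at E12.5 to 133.5 ± 11.98 CPM at PND0. Dlk2, a non-canonical ligand, rose by 1.24 on the log2 scale from E14.5 to E16.5 (adjusted p = 2.21e-07). The ligand ubiquitin ligases Neurl1a and Neurl1b rose in the first and the last step, from 9.55 ± 0.362 and 8.86 ± 1.11 CPM at E12.5 to 54.8 ± 4.87 and 70.2 ± 8.43 CPM at PND0.

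Among other targets and downstream genes, Id1 and Id3, which encode inhibitors of bHLH factors, fell from E12.5 to E14.5 (log2 fold changes -1.52 and -1.77), and Id2 rose by 1.07 (adjusted p = 0.000151 by edgeR) from E14.5 to E16.5. Of the 12 downstream genes, 9 fell and 1 rose from E14.5 to E16.5, and 8 fell and 1 rose to PND0. At these steps Nhlh1 had log2 fold changes of -1.80 and -1.96 and Gadd45g of -0.85 and -2.05. Insm1, a factor of basal progenitors, rose and then fell as Eomes did, with 121 ± 33.65, 175 ± 5.60, 114 ± 29.1 and 54.9 ± 11.6 CPM over the stages. Neurod2 and Neurod6, factors of maturing cortical neurons, rose by 1.54 and 1.68 on the log2 scale from E12.5 to E14.5.

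**Figure D2:**
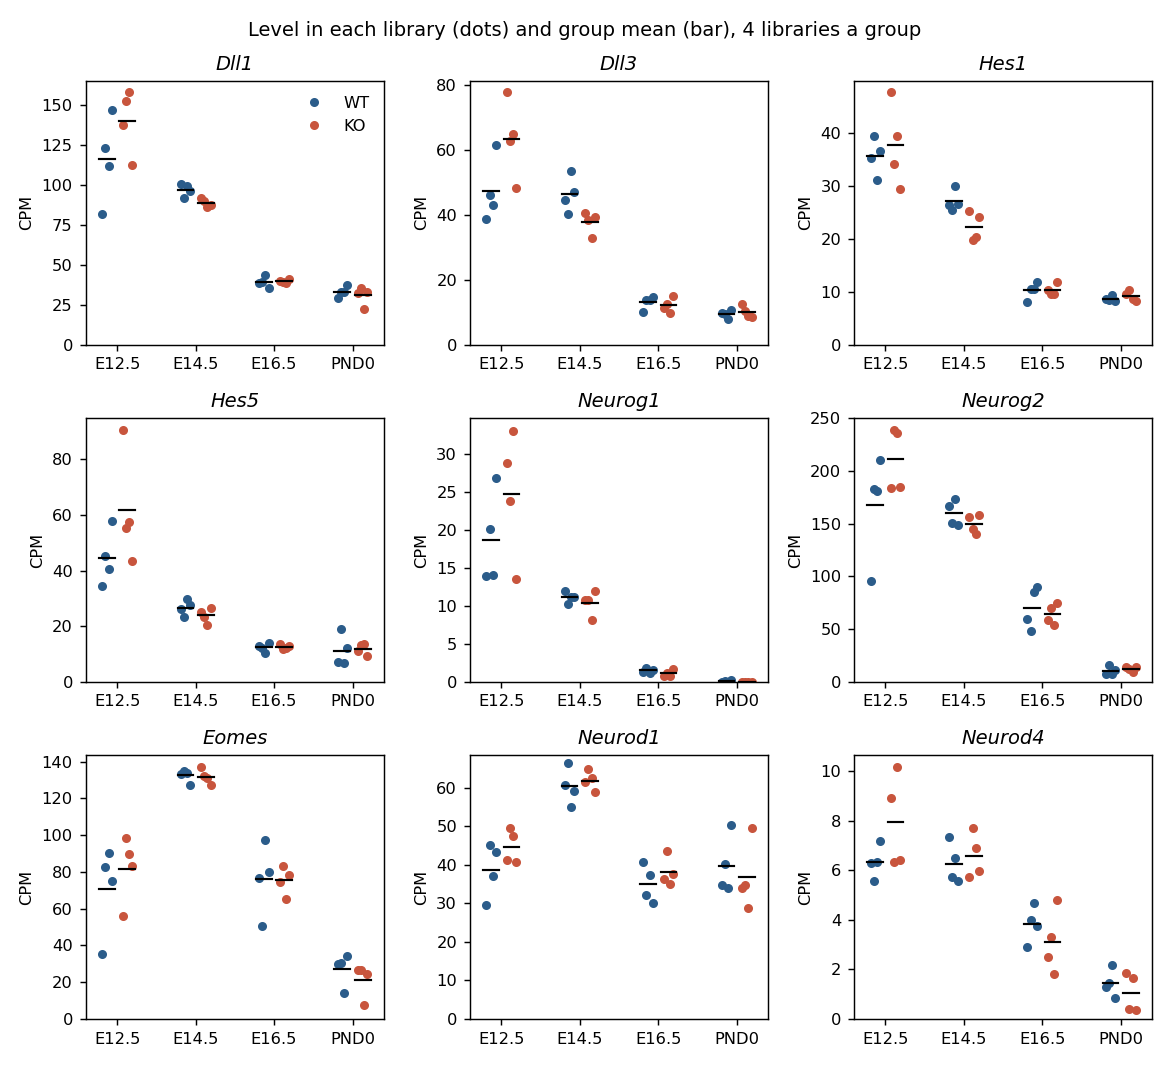
Level of each of the 9 genes in CPM (vertical axis, from 0) in every library at the 4 stages (horizontal axis). Dots are libraries, blue for WT and red for KO, and bars are means of 4. The genotypes overlap everywhere except for Dll1 and Hes1 at E14.5, where all 4 KO libraries lie below all 4 WT libraries, and the E12.5 libraries are the most spread.

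The comparison of KO with WT asked whether loss of Dhcr7 changed these genes at any stage. None of the 9 genes passed the threshold at any stage by edgeR, with Neurog1 too low to be tested at PND0. At E12.5 this was 0 of 9 beside 0.0177% of all tested genes. The counts at the later stages, in order, were 0 of 9 beside 0.527%, 0 of 9 beside 0.0462% and 0 of 8 beside 1.44%. At an unadjusted p under 0.05 the counts were 1 (Dll3), 3 (Dll1, Dll3 and Hes1), 0 and 0, where 4.70%, 8.73%, 11.5% and 18.0% of all tested genes had such a p. DESeq2 gave 0, 1 (Dll3), 0 and 0.

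**Figure D3:**
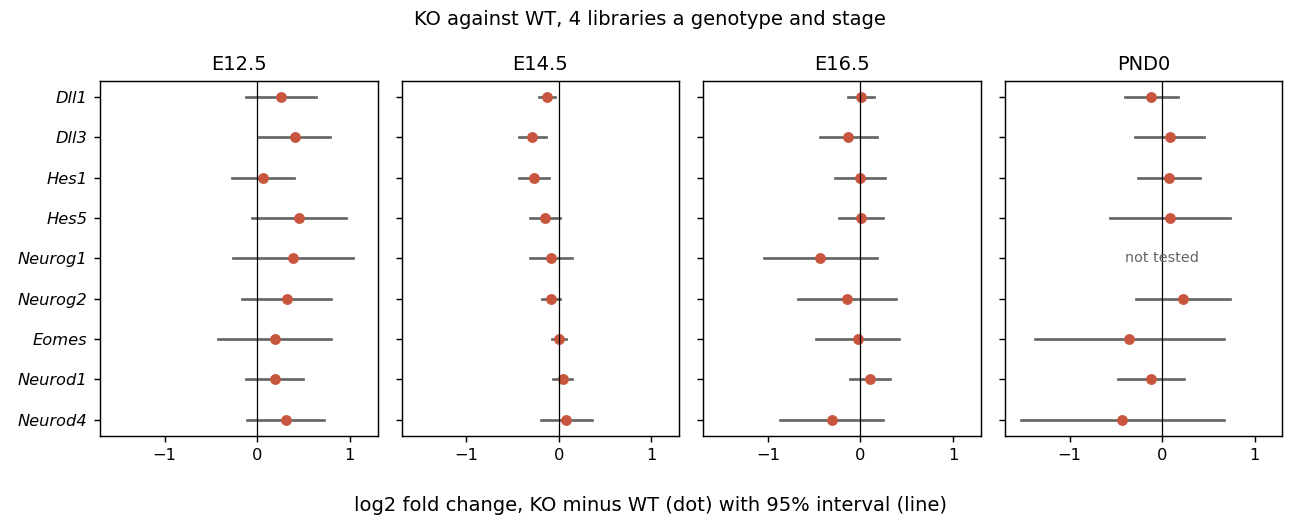
Log2 fold change of KO against WT (horizontal axis) for each of the 9 genes (vertical axis) at each stage, with dots for the estimate and lines for its 95% interval, 4 libraries a genotype. All 9 estimates are above 0 at E12.5, and at E14.5 those of Dll1, Dll3 and Hes1 lie below 0 with intervals that leave out 0.

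At E12.5 all 9 genes were estimated higher in KO, where 50.7% of all tested genes were, and the median of the 9 log2 fold changes was 0.31 beside 0.00 over all genes. No gene separated the genotypes (1.43% of all genes did so upwards and 1.1% downwards). Hes5 had the largest estimate: KO libraries had 90.6, 55.2, 57.4 and 43.6 CPM against 34.4, 45.4, 40.4 and 58.0 CPM in WT. The high value was KO replicate 1, the library with the most ribosomal RNA. Relative to the stage mean, log2 levels in KO replicate 1 changed by -0.164 per doubling of transcript length, against 0.00426 to 0.0577 in the other E12.5 libraries. Hes5 has the shortest transcript of the 9 genes, 1273 nt. The log2 fold change of Hes5 in KO against WT was 0.45 (SE 0.228, 95% interval -0.06 to 0.96, adjusted p = 0.875 by edgeR). It was 0.19 without KO replicate 1 and 0.36 with offsets for transcript length. With those offsets the estimate of Hes1 was -0.01.

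Dll3 had 77.8, 62.8, 65.0 and 48.2 CPM in KO and 38.9, 46.2, 42.9 and 61.4 CPM in WT at E12.5. KO replicate 1 was again the highest, and WT replicate 4 lay above KO replicate 4. The log2 fold change was 0.40 (SE 0.169, 95% interval 0.02 to 0.78, unadjusted p = 0.0400, adjusted p = 0.875 by edgeR), and it was 0.27 without KO replicate 1.

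The neurogenins overlapped as well. Neurog2 had 184, 239, 236 and 185 CPM in KO against 95.2, 183, 181 and 211 CPM in WT. Its log2 fold change of 0.32 (95% interval -0.16 to 0.80) was 0.13 without E12.5 WT replicate 1, its lowest library. Neurog1 had 28.8, 23.8, 33.0 and 13.5 CPM in KO and a log2 fold change of 0.38 (95% interval -0.27 to 1.03), which was 0.27 without that WT library. Eomes had 55.9, 98.4, 89.5 and 83.1 CPM in KO and a log2 fold change of 0.19 (95% interval -0.42 to 0.80), which turned to -0.03 without WT replicate 1. The lowest library of each genotype in Eomes was the one numbered 1. The other 4 genes had log2 fold changes of 0.06 for Hes1, 0.19 for Neurod1, 0.26 for Dll1 and 0.31 for Neurod4, each with an adjusted p of at least 0.875.

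With both libraries numbered 1 left out, the E12.5 log2 fold changes ran from -0.08 for Hes1 to 0.24 for Neurod4. Hes5 was then at 0.09, Dll3 at 0.20, Neurog2 at 0.17, Neurog1 at 0.17, Dll1 at 0.12, Neurod1 at 0.11 and Eomes at 0.10. Leaving both out was chosen after their values had been seen.

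The E12.5 libraries differed in a maturity score, in which developmental age and tissue makeup cannot be told apart. From E12.5 to E14.5 the WT mean sum of mesenchyme and skin markers itself fell from 2294 to 638 CPM. For each library the score is the mean log2 level of 500 genes minus that of 500 others. The first 500 rose in WT from E12.5 to E14.5 and the others fell. The 9 genes, Dhcr7, the other pathway genes and the markers were kept out of it, while the genes of similar course were not. WT libraries scored -2.07, -1.33, -0.12 and -0.93, and KO libraries -1.28, 0.16, 0.09 and -0.32. The KO mean was 0.78 above the WT mean, 2 KO libraries were above every WT library, and the 8 libraries spanned 2.23, or 55.8% of the WT step from E12.5 to E14.5 (3.995). The E12.5 WT libraries took part in choosing the score's genes and the KO libraries did not. That choice by itself can lower the WT scores, so the gap between genotypes is no independent measure of maturity. The span and the results below that use the score share this limit. Tissue markers were uneven among these libraries. E12.5 WT replicate 1, the lowest, had the highest muscle sum and the highest sums of mesenchyme and skin markers (3576 CPM against 660 to 2769) and of pituitary markers (51.6 against 4.12 to 23.6). Of the 10 hindbrain and spinal cord markers, the same library had a sum of 24.4 CPM against 0.966 to 6.61 CPM in the others. Mesenchyme and skin sums were lowest in KO replicates 2 and 3 (660 and 722 CPM), and the blood sum was highest in WT replicate 3 (8948 CPM against 1597 to 4861 CPM). The telencephalon markers Emx1, Emx2 and Lhx2 summed to 257.5, 489, 385.5 and 477.5 CPM in WT and 406, 541, 519 and 436 CPM in KO, lowest in WT replicate 1 and highest in KO replicates 2 and 3, the order also seen at the ends of the score. The part of tissue makeup in the score and in the levels was not tested.

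**Figure D4:**
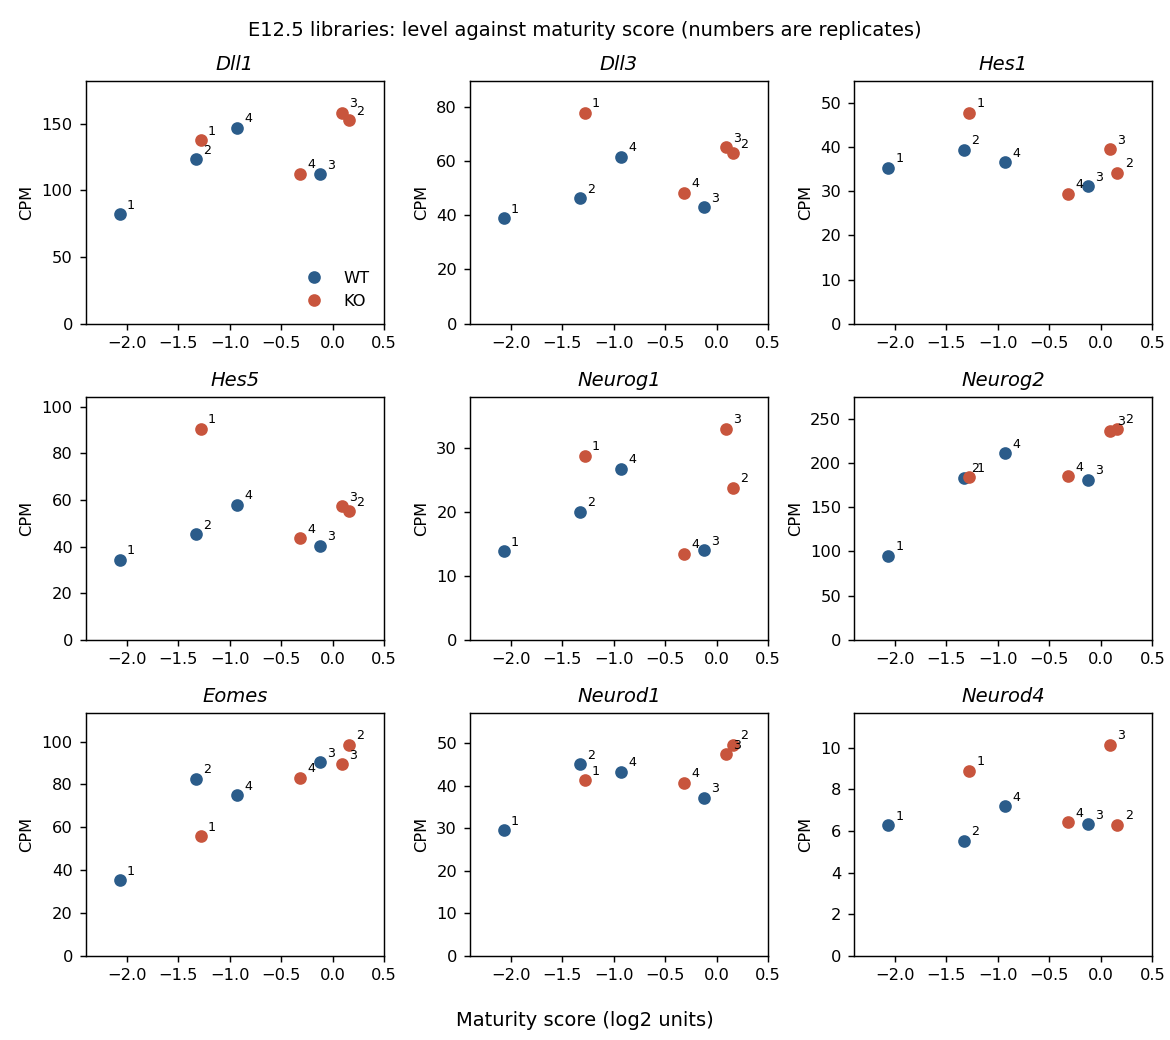
Level of each of the 9 genes in CPM (vertical axis, from 0) against the maturity score in log2 units (horizontal axis) in the 8 E12.5 libraries, blue for WT and red for KO, with replicate numbers. Eomes and Neurog2 increase from WT replicate 1 on the left to KO replicates 2 and 3 on the right, and Hes5 has its highest value in KO replicate 1.

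Of the 9 genes, Eomes alone followed the score past the threshold over the 8 libraries (Pearson's r = 0.868, exact permutation p = 0.00164, adjusted over the 9 genes 0.0147, Spearman's rho = 0.905, exact permutation p = 0.00456, two-sided). Within genotypes of 4 libraries, r was 0.843 in WT and 0.990 in KO. Neurog2 had r = 0.795 (exact permutation p = 0.0114, adjusted 0.0512) and rho = 0.738. Without the libraries farthest from the median score, WT replicate 1 and KO replicate 2, r was 0.696 for Eomes and 0.435 for Neurog2. The relation of Eomes rests in part on single libraries: the adjusted p was 0.154 without WT replicate 1 and 0.0589 without KO replicate 2. The other 7 genes had r from -0.388 (Hes1) to 0.651 (Neurod1), with adjusted p of at least 0.2105. Hes1, which falls over the WT step, had the only negative r, while Hes5 and Neurog1, which also fall, had 0.129 and 0.206. Without WT replicate 1 and KO replicate 2, r was also negative for Dll1, Dll3, Hes5, Neurog1 and Neurod1 (-0.451 to -0.036).

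With the score as a covariate, the E12.5 genotype estimate of Eomes turned from 0.19 to -0.23 and that of Neurog2 went from 0.32 to 0.06. For Dll3 and Hes5 it was 0.44 and 0.55, no smaller than without the covariate, and the adjusted p was 0.634 for both by edgeR. Neurog1 stayed at 0.38 and Hes1 was at 0.21. With a score built from the step E14.5 to E16.5 as the covariate instead, the estimates were -0.11 for Neurog1 and for Hes1, 0.20 for Dll3, 0.23 for Hes5, 0.21 for Neurog2 and 0.23 for Eomes. That score placed the E12.5 WT libraries (mean -2.05) above those of E14.5 (-2.84), so it does not order these stages by age. The first score does not order all stages by age either, with WT means of 2.88 at E14.5 and 2.16 at E16.5.

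At E14.5, where libraries were most alike, the estimates of 2 genes, Neurod1 and Neurod4, were above 0 (50.6% of all genes were) and the median of the 9 was -0.09. Of the 9 genes, Dll1 and Hes1 had every KO library below every WT library, which 2.76% of all tested genes had. Hes1 had 26.3, 25.4, 29.9 and 26.7 CPM in WT and 25.2, 19.7, 20.3 and 24.1 CPM in KO. The highest KO library, replicate 1, lay just below the lowest WT library, replicate 2. The log2 fold change was -0.27 (SE 0.0792, 95% interval -0.43 to -0.11, unadjusted p = 0.00142, adjusted p = 0.14 by edgeR). The adjusted p was 0.0330 when the filter on low counts was dropped.

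Dll3 had the smallest p. It measured 44.7, 40.3, 53.6 and 47.1 CPM in WT and 40.7, 38.3, 33.0 and 39.2 CPM in KO, and WT replicate 2 lay just below KO replicate 1. The log2 fold change was -0.29 (SE 0.0725, 95% interval -0.44 to -0.14, unadjusted p = 0.000533, adjusted p = 0.0795 by edgeR). Dll3 passed under DESeq2 (adjusted p = 0.0441), without a filter on low counts (0.000102), with offsets for transcript length (0.0418), with the maturity covariate (0.0191) and without WT replicate 2 (0.00106). In the fit of all 32 libraries its adjusted p was 1.

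Dll1 measured 100.4, 92.0, 99.4 and 96.4 CPM in WT and 91.5, 89.8, 86.1 and 87.2 CPM in KO. The groups did not overlap, and the difference was small, with a log2 fold change of -0.12 (SE 0.0428, 95% interval -0.21 to -0.04, unadjusted p = 0.0062, adjusted p = 0.312 by edgeR). Hes5 had 26.3, 23.2, 29.7 and 27.6 CPM in WT and 24.9, 23.4, 20.6 and 26.6 CPM in KO, which overlap (log2 fold change -0.15, 95% interval -0.31 to 0.01).

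Downstream, the E14.5 levels were close. Eomes had 134, 135, 134 and 128 CPM in WT and 137, 132, 131 and 127 CPM in KO, a log2 fold change of 0.00 with a 95% interval of -0.08 to 0.07. The estimate was -0.08 (95% interval -0.18 to 0.01) for Neurog2, -0.09 (-0.31 to 0.14) for Neurog1, 0.04 (-0.07 to 0.14) for Neurod1 and 0.08 (-0.20 to 0.36) for Neurod4.

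Cell-type sums and library measures at E14.5 were as follows. The 7 markers of dividing cells summed to 925 to 1007 CPM in WT and 850 to 923 CPM in KO, with the nearest libraries close (925.3 and 922.7 CPM) but no overlap. The 7 neural progenitor markers, at 1796 to 1983 and 1784 to 1859 CPM, overlapped. KO replicates 3 and 4 had 2.68% and 2.55% of counts in CT010467.1 against 0.869% to 1.17% in the other 6 libraries. Without these 2 libraries, a choice made after seeing the data, the estimates were -0.23 for Dll3, -0.27 for Hes1 and -0.10 for Dll1. The score built from the step E14.5 to E16.5 was -2.93 to -2.755 in WT and -2.80 to -2.69 in KO, which overlap. With that score as a covariate the estimates were -0.08 for Dll3, -0.10 for Hes1 and -0.08 for Dll1. The part of cell makeup in the 3 differences was not tested.

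In the later stages the genotypes overlapped for every gene tested, while 3.6% and 2.79% of all genes separated upwards and downwards at E16.5, and 6.03% and 5.84% at PND0. At E16.5 Dll1 was at 39.2 ± 3.37 CPM in WT and 39.8 ± 1.05 CPM in KO, with a 95% interval of the log2 fold change of -0.14 to 0.15. Hes1 was at 10.2 ± 1.56 and 10.3 ± 1.03 CPM (95% interval -0.27 to 0.27) and Hes5 at 12.3 ± 1.48 and 12.53 ± 0.866 CPM (-0.23 to 0.24). Neurog1, at 1.29, 1.87, 1.196 and 1.59 CPM in WT and 0.820, 1.11, 0.811 and 1.70 CPM in KO, had the lowest estimate, -0.44 (95% interval -1.05 to 0.17, adjusted p = 0.579 by edgeR). Dll3 was at -0.13, Neurog2 at -0.15, Eomes at -0.03, Neurod1 at 0.10 and Neurod4 at -0.31, with adjusted p of at least 0.667. The neural progenitor markers summed to 1304 to 1469 CPM in WT and 1158 to 1293 CPM in KO at E16.5, without overlap. Sums of the markers of dividing cells, 486 to 653 and 406 to 503 CPM, overlapped. The part of cell makeup in the E16.5 comparison was not tested.

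At PND0 the least certain genes were Neurod4 and Eomes. Neurod4 had 1.301, 1.46, 2.18 and 0.846 CPM in WT and 1.84, 0.386, 1.64 and 0.357 CPM in KO, with KO replicates 2 and 4 below every WT library. Those 2 values rest on 6 counts each, and the WT libraries held 17 to 39 counts. Its log2 fold change was -0.43 with a 95% interval of -1.53 to 0.67. Eomes had 29.9, 30.2, 14.1 and 34.2 CPM in WT and 26.8, 26.6, 7.81 and 24.2 CPM in KO, so that replicate 3 was lowest in both genotypes. The log2 fold change was -0.35 (95% interval -1.37 to 0.66, adjusted p = 0.731 by edgeR) and it was -0.08 without KO replicate 3. The 2 libraries with low Eomes had the highest midbrain and cerebellum sums of their groups, 79.6 CPM in WT and 47.1 CPM in KO. KO replicate 2, with Eomes at 26.6 CPM, had a sum of 41.8 CPM. For the telencephalon markers Emx1, Emx2 and Lhx2, KO replicate 3 had the highest sum of its group, 228 CPM against 166 to 183 CPM. WT replicate 3 had 132 CPM, inside the WT range of 123 to 156 CPM.

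Neurog2 had a positive estimate at PND0, 0.23 (95% interval -0.28 to 0.74), with means of 10.7 ± 4.15 CPM in WT and 12.6 ± 2.44 CPM in KO. Dll1, Dll3, Hes1, Hes5 and Neurod1 had estimates of -0.11, 0.08, 0.07, 0.08 and -0.12, with adjusted p of at least 0.713. Neurog1 had 8 counts over the 4 WT libraries and 0 over the 4 KO libraries. A count of 0 in the 4 KO libraries together allows up to 3 counts, or 0.0411 CPM, below the WT mean of 0.106 CPM. Of the 8 WT counts, 6 came from WT replicate 4, and WT replicates 1 and 3 had 0, so no difference between the genotypes is drawn. The hindbrain and spinal cord markers summed to 1.41 to 9.31 CPM in WT and 0.238 to 0.515 CPM in KO at PND0, with 9 of the 10 at 0 in every KO library. The sum of Emx1, Emx2 and Lhx2 also separated the genotypes, at 123 to 156 CPM in WT and 166 to 228 CPM in KO. The part of these differences in the PND0 comparison, Eomes and Neurog2 included, was not tested.

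Whether the KO effect differed between stages was tested in a fit of all 32 libraries. None of the 9 genes passed, beside 0.0256% of all genes, by edgeR, and none by DESeq2. Dll3 (unadjusted p = 0.0105, adjusted p = 0.255) and Neurog1 (0.0266 and 0.316) had an unadjusted p under 0.05, as 13.5% of all genes did. For E14.5 against E12.5 alone the count was also 0, beside 0.0% of all genes. The E14.5 effect was below the E12.5 effect for all 9 genes, as for 55.6% of all genes. Dll3 had the largest such difference, -0.72 on the log2 scale (SE 0.207, 95% interval -1.14 to -0.30, unadjusted p = 0.00149, adjusted p = 0.726 by edgeR). Dll1 (-0.40) and Hes1 (-0.36) also had an unadjusted p under 0.05, as 6.35% of all genes did. For Dll3 the difference was -0.60 without E12.5 KO replicate 1 and -0.63 without E12.5 WT replicate 1.

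In the wider pathway, 0 of 62, 0 of 61, 0 of 59 and 1 of 59 tested genes passed in KO against WT over the 4 stages by edgeR. Over all tested genes the shares called were 0.0177%, 0.527%, 0.0462% and 1.44%. The counts at an unadjusted p under 0.05 were 4, 6, 7 and 19, where 4.70%, 8.73%, 11.5% and 18.0% of all genes had such a p. At PND0 Dtx3, a Deltex family gene of the Notch inhibitor list, rose from 199.6 ± 22.1 CPM in WT to 275 ± 22.8 CPM in KO (log2 fold change 0.46, SE 0.0889, adjusted p = 0.0236). That call was lost with length offsets (adjusted p = 0.0752), with the maturity covariate (0.0546), with the ribosomal RNA covariate (0.689) and without WT replicate 1 or 3 or KO replicate 1 or 2 (0.0630 to 0.0824). Jag1 was at 23.6 ± 1.51 CPM in WT and 16.4 ± 2.24 CPM in KO at PND0 (log2 fold change -0.53, adjusted p = 0.0527), and Notch2 at 61.4 ± 7.49 and 48.3 ± 3.37 CPM (-0.35, adjusted p = 0.088).

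The smallest p in the wider pathway at the other stages belonged to Heyl (log2 fold change -0.40) and Notch4 (0.28) at E12.5, Notch2 (-0.13) and Hes6 (-0.17) at E14.5 and Jag2 (0.20) and Numbl (0.14) at E16.5, with adjusted p from 0.204 to 0.875. Gadd45g, a target of the neurogenins, stood at 89.1 ± 18.3 CPM in WT and 129 ± 39.8 CPM in KO at E12.5 (log2 fold change 0.51, unadjusted p = 0.0412, adjusted p = 0.875 by edgeR). Its KO libraries ran from 94.1 to 186 CPM with a median of 117 CPM, and overlapped those of WT (65.3 to 109 CPM). Of the 12 downstream genes, 11 had an estimate above 0 at E12.5, where 50.7% of all genes did, and 6 did with the maturity covariate. Neurod6, for one, went from 0.16 to -0.39. Insm1 had estimates of 0.32, -0.04, 0.09 and -0.07 over the stages, and Notch1 of -0.13, -0.02, 0.04 and 0.01, none past the threshold.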

How the data were processed

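RNA had been extracted with a lipid tissue kit, enriched for polyadenylated transcripts and sequenced as paired reads, per the labels' protocols. The authors deposited 1 table of raw gene counts per stage, made with HISAT2, SAMtools and featureCounts on build mm10, per the submitters' processing notes, which also name DESeq2. Versions, the gene annotation and the strand setting are not given in the sources used here. Of the 55291 symbols, 53292 were matched to GENCODE M21 by name, 404 by synonym and 1595 not at all, and 108 had more than 1 locus.

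Each stage, and each pair of neighbouring WT stages, was fitted alone with edgeR 4.0.16 (R 4.3.3), with TMM scaling, filterByExpr (minimum count 10, minimum total 15) and the robust quasi-likelihood test with Benjamini-Hochberg adjustment over all genes that passed the filter. All 9 genes passed it except Neurog1 in the PND0 comparison of genotypes. The difference of the knockout effect between stages was fitted on all 32 libraries. The printed CPM are scaled over all 32 libraries, whereas each fit used its own scaling. The edgeR script was tested on simulated counts. Counts of replicates differed beyond sampling noise in all 48 pairs of a group (chi-square per degree of freedom 2.90 to 114.7).

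Correlations with the maturity score used log2 CPM and an exact two-sided permutation test with adjustment over 9 genes. The 9 genes and all gene lists were chosen with earlier results of these data known. Besides the 9 genes and Dhcr7, the text names pathway genes past the threshold in knockout against WT, those with the 2 smallest p at each stage, at each WT step the 2 rising and 2 falling most among those averaging 1 CPM or more, and Notch1, Notch2, Notch3 and Insm1. Some genes that these rules select are not reported here. The sum of 3 telencephalon markers was chosen after seeing the data. Genes of similar course were the 2 with the highest r at a mean of at least 5 CPM. Notch4, the genes of the nuclear complex and the markers are named as members of their lists. Alternatives tried were DESeq2 1.42.0, its size factors in edgeR, no filter on low counts, length offsets, a replicate block, maturity covariates, a joint fit of 32 libraries, the interaction without E12.5, and each library left out in turn.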

Additional observations from a re-analysis of the deposited data

Results flagged for a closer look

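Eomes in PND0 KO replicate 3 measured 7.81 CPM, while the other 3 libraries of the group lay between 24.2 and 26.8 CPM. Its gap to the nearest library was 0.861 of the group's range, above Dixon's 95% critical value for 4 samples. Of 71 groups of 4 libraries tested over the 9 genes, this was the only one past that value, where chance alone flags about 1 group in 20. The same library had the highest sum of 7 blood markers at PND0 (2223 CPM against 191 to 615 CPM in the other 7 libraries), the highest sum of neural progenitor markers (1329 against 936.5 to 1012 CPM) and the highest midbrain and cerebellum sum of the KO group. Its sum of Emx1, Emx2 and Lhx2 was also the highest at PND0, 228 CPM against 123 to 183 CPM. The part of these differences in the low Eomes level was not tested.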

How the results depend on the processing

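At E14.5 the number of the 9 genes past the threshold in KO against WT went from 0 to 2 without a filter on low counts (Dll3 and Hes1), and to 1 (Dll3) under DESeq2, with length offsets, with the maturity covariate and without WT replicate 2. Leaving out each library in turn gave 0 to 1 genes at E14.5, and 0 at E12.5, at E16.5, at PND0 and for both tests of a difference between stages. For the WT steps it gave 5 to 7, 9 and 5 to 6 genes. Of the genes following the maturity score at E12.5, 1 in the analysis reported, 0 passed with 100 genes a side and 0 to 2 with a library left out. With the score from the step E14.5 to E16.5, r was negative for all 9 genes, from -0.928 for Neurog1 (adjusted exact permutation p = 0.0029) to -0.083 for Eomes. Adjusted p for r was at least 0.084 for the genes other than Neurog1. By Spearman's rho the adjusted exact permutation p was 0.0277 for Dll1, Dll3, Hes1 and Hes5 and 0.0201 for Neurog1. The cause of these changes was not tested. Of the counts under the alternatives, 183 stayed within 1.5 times the reported count and 11 did not. The values for single genes stayed on their side of the threshold in 5643 cases, gained it in 44 and lost it in 71. In 2 more, the Pearson correlations of Neurog1 and Eomes under the score from the step E14.5 to E16.5, a value past the threshold under either setting turned sign. Estimates past no threshold turned more often: of 613 estimates of the 9 genes in KO against WT under the alternatives, 62 had the opposite sign (9, 15, 25 and 13 by stage in order). The ribosomal RNA covariate and the fits without both E12.5 libraries numbered 1, or without E14.5 KO replicates 3 and 4, were chosen after seeing the data, and they gave 0 of the 9 genes past the threshold.

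Replicate numbers are shared by the genotypes, but the labels give them no meaning. The deviations of same-numbered libraries correlated from -0.176 to 0.379 in the E12.5 libraries, and from -0.0872 to 0.0413, -0.138 to 0.156 and -0.0649 to 0.116 in the later stages in order, so the numbers were not taken to pair the libraries. With the replicate number as a block, 0 of the 9 genes passed at every stage and 0 for the difference between stages. In the WT step to PND0 the block left Eomes at an adjusted p of 0.0514. Few counts limit Neurog1 at PND0, with 8 in WT, 6 of them in WT replicate 4. They also limit Neurod4 at PND0, with 6 in each of KO replicates 2 and 4.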
